A study of Mus musculus with 17 samples.

Results

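Acetylation of lysine 27 of histone H3 (H3K27ac) was mapped by CUT&RUN at 11424 promoter-proximal regions of the mouse brain, and 386 of these regions (3.38%) shared at least 1 base with 1 of the 3582 regions listed for ATAC-seq, which measures open chromatin. The 386 regions were chosen by position alone, without their signal, and were named for 334 genes. In the other direction, 381 of the 3582 ATAC regions (10.6%) shared bases with an H3K27ac region, in 416 pairs in all. Regions sharing bases are called overlapping regions here.

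All animals were wild-type ICR mice, 8 weeks old at surgery. Sham mice served as controls. The 6-OHDA-induced PD model had received 6-hydroxydopamine, a toxin of dopaminergic neurons, in the substantia nigra of 1 side. The NDST3-treated PD model had received the same lesion and, 5 days later, NDST3 (a heparan sulfate N-deacetylase and N-sulfotransferase). The methods describe human NDST3 on an AAV9 vector driven by the CMV promoter, which is active in many cell types. They also describe a lentiviral NDST3 vector, and do not name the vector given to the sequenced mice. The lesioned mice without NDST3 received saline rather than an empty vector, so vector and NDST3 cannot be told apart in these libraries. The paper reports no significant difference between sham and an eGFP vector group in rotation or inflammatory marker RNA. No library used here comes from that group. RNA-seq had 2 sham libraries, 1 library of the 6-OHDA-induced PD model and 2 of the NDST3-treated PD model. H3K27ac had 2 libraries per group, given as 1 pooled column, and ATAC-seq had 1 library per group, so neither signal has a replicate check and neither was tested.

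H3K27ac is deposited on nucleosomes beside active promoters and enhancers, where acetyl-lysine readers recruit the transcription machinery, and it is removed by histone deacetylases. ATAC-seq reads come from DNA that a transposase can reach. At an active promoter this is mostly the nucleosome-free stretch directly before the transcription start. The strongest ATAC signal and the strongest H3K27ac of such a promoter therefore usually lie side by side rather than on the same bases. Both marks are common at promoters of housekeeping genes.

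2 properties of the tables bear on every value that follows. In none of the 11424 H3K27ac regions was the signal of the NDST3-treated PD model below that of the 6-OHDA-induced PD model. It was equal in 425 and higher in all others. Whether the table was filtered on this was not tested. The direction of this comparison is given as a description only. The ATAC-seq table was not limited in this way, with a lower signal in 38.3% of the regions that have both values.

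The second property is position. The authors name the mouse build mm10 (GRCm38), but the gene starts implied by each region's centre and its listed distance to the transcription start differed by over 500 bp from the GRCm38 start of the same gene in 10700 of 11424 H3K27ac and 3050 of 3582 ATAC regions. They coincided within 2 bp in 375 and 311 regions. The build behind the listed gene starts is not stated, and "both builds" below means that build and GRCm38. The H3K27ac regions included 1 on a scaffold named 1_MU069434v1_random and 3 on X_GL456233v2_random, and no ATAC region lay on either. Which build uses these scaffold names was not tested. Where the gene starts differed by over 500 bp, the H3K27ac regions lay within 1 kb of any GRCm38 transcript start in 7.57% of cases, with no rise with signal. ATAC regions did so in 12.5% of cases up to a sham signal of 10, but in 87.9% of the 140 regions above 100. Strong ATAC regions thus sat at GRCm38 starts although the gene starts listed beside them did not match GRCm38, and H3K27ac regions showed no such link. Shared coordinates can therefore be taken as shared DNA only where the starts coincide.

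**Figure D1:**
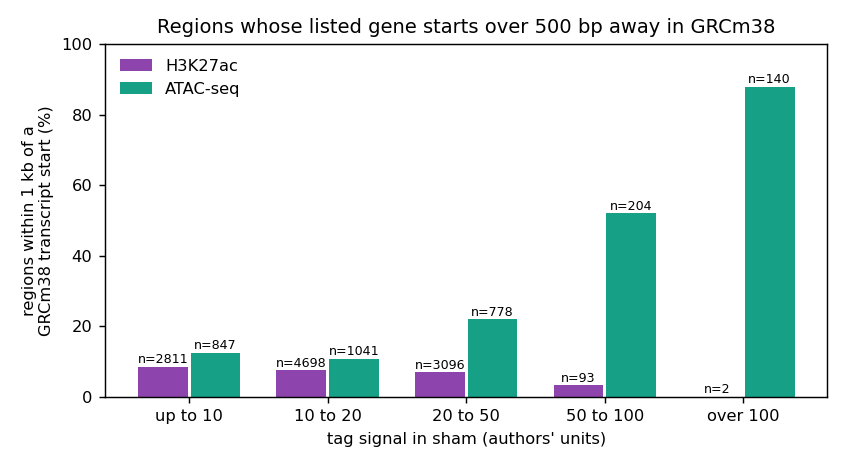
Share of regions within 1 kb of any GRCm38 transcript start (y axis, percent) by the tag signal in sham (x axis, authors' units), for regions whose listed gene starts over 500 bp away in GRCm38, with the number of regions over each bar. The ATAC-seq bars reach 87.9% above a signal of 100, whereas the H3K27ac bars stay at 8.5% or below.

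Of the 386 overlapping regions, 93 coincided in both builds (position-matched regions, 73 genes), 15 were 3 to 500 bp apart, 269 were over 500 bp apart (shifted regions) and 9 belonged to genes without a GRCm38 match. Overlap was found for 24.8% of the position-matched H3K27ac regions and for 2.51% of the shifted ones. The position-matched overlapping regions lay on chromosome 4 (49 regions), chromosome 6 (22) and chromosome 9 (8), and the other 14 on a further chromosome. For these 93 regions both signals refer to the same DNA, and they carry the comparison of the marks. For the shifted regions the RNA-seq of the gene named in the H3K27ac table was used, and their ATAC signal is not assigned to that gene.

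The sequences of 5 position-matched promoters show where the marks met. These were chosen after their values were seen, for strong ATAC signal (Capza2, Chmp5, Erp44), a large H3K27ac ratio (Chmp5) or a called change in RNA-seq (Capza2, Calu, Glipr2). Each runs 5′ to 3′ on the gene's strand from 250 bases before to 50 after the start in RefSeq on GRCm38.p6, and the capitals mark every base that lies in both an H3K27ac and an ATAC region. They lie at chr6:17636760-17637059 (Capza2, plus strand), chr4:40948303-40948602 (Chmp5, plus), chr6:29347856-29348155 (Calu, plus), chr4:48279586-48279885 (Erp44, minus) and chr4:43957452-43957751 (Glipr2, plus).
Capza2: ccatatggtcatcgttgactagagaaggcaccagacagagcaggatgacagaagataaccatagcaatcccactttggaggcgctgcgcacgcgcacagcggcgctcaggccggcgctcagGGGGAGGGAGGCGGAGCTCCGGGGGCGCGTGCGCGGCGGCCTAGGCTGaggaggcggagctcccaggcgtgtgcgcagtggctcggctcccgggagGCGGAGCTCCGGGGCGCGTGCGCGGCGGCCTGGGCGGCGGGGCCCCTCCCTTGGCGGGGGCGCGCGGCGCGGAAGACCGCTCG
Chmp5: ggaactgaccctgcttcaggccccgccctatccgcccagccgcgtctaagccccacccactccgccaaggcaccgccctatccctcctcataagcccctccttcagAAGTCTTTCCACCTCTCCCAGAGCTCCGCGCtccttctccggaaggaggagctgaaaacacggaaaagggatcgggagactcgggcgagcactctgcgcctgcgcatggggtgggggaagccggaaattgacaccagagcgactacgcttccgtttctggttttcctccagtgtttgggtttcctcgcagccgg
Calu: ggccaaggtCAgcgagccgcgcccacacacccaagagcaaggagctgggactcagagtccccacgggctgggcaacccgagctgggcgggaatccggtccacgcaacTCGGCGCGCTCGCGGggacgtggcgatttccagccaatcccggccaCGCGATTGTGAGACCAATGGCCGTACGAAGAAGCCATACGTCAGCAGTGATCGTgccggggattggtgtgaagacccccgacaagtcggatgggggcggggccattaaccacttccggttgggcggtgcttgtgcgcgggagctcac
Erp44: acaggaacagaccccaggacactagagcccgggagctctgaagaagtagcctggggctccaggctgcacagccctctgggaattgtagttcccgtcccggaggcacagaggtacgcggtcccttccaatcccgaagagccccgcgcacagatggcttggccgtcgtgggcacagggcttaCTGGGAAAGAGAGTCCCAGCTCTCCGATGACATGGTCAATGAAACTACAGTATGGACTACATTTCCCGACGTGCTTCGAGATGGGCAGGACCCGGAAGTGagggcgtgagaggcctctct
Glipr2: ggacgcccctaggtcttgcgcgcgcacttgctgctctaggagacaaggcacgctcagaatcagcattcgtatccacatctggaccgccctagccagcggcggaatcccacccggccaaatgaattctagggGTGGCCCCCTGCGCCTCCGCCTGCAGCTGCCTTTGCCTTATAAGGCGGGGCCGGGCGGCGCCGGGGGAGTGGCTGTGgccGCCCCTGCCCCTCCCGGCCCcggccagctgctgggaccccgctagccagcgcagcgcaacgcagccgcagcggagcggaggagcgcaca
In Capza2, where 2 H3K27ac regions met the same ATAC region, 131 bases were shared in this window, of which 81 lay before the start. All 31 shared bases of Chmp5, 71 of Calu and 97 of Glipr2 lay before it, as did 70 of 100 in Erp44. All 5 were rich in G and C, from 60% in Erp44 to 73% in Capza2, with 16 to 38 CpG. GGGCGG, the core of the GC box, was present on either strand in 4 of them, and CCGGAA, the core bound by ETS factors such as GABP, in Chmp5, Calu and Erp44.

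RefSeq promoters were matched for 248 of the 334 genes (330 promoters). Of these, 55.5% held GGGCGG and 30% held CCGGAA, against 35.7% and 14.9% of all 32851 promoters, both strands searched. TATAAA was in 6.67% against 13.6%, CCAAT in 33.3% against 37.4%, TGACGTCA in 3.94% against 1.79% and CACGTG in 8.48% against 7.15%. Genes with H3K27ac regions that shared no base with an ATAC region gave 60.6% for GGGCGG, 27.3% for CCGGAA and 6.87% for TATAAA. These shares were close to those of the 330 promoters of overlapping genes. The 70 promoters of genes with position-matched regions gave 57.1%, 40% and 10% in the same order. CCGGAA was more frequent in this smaller set, with 28 promoters, and the difference was not tested. Median GC content of the 330 promoters was 59.8% against 52.7% for all promoters. A match is a run of letters only, and no site was tested.

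The overlapping regions were of much the same size as the rest of the H3K27ac table. Their median width was 100 bp, the width of 68.9% of them and of 71.6% of the others, and the widest had 380 bp. The median number of shared bases was 63, from 1 to 242. The fewest were in Pih1d2 (1 base) and in Csrnp3 and 1 region of Calu (2 bases), whereas regions of Mgat4b and Fam120aos touched an ATAC region without sharing a base, with H3K27ac signals of 22.1 and 15.2 in sham. The centre of the region lay within 100 bp of the listed start in 35% of the overlapping and 34.3% of the other H3K27ac regions, but in 51.6% of the position-matched overlapping ones. A single overlapping region was listed for 285 genes, and 49 genes had 2 to 4.

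H3K27ac medians lay close together in overlapping and other regions, whereas ATAC medians were far apart within the overlapping ones. Over the 381 overlapping regions with a signal of at least 1 in some group, the median H3K27ac signal was 15.9 in sham, 16.4 after 6-OHDA alone and 23.7 after 6-OHDA and NDST3, against 15, 16.4 and 22.9 in the other regions. The median ATAC signal of position-matched overlapping ATAC regions was 176, 205 and 201 in the same order (86 regions), and 15.9, 16.2 and 17.7 in the shifted ones (269 regions). In all 3 groups an ATAC signal of at least 100 was found for 62 of the 93 position-matched regions (66.7%) but for only 12 of the 269 shifted ones.

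**Figure D2:**
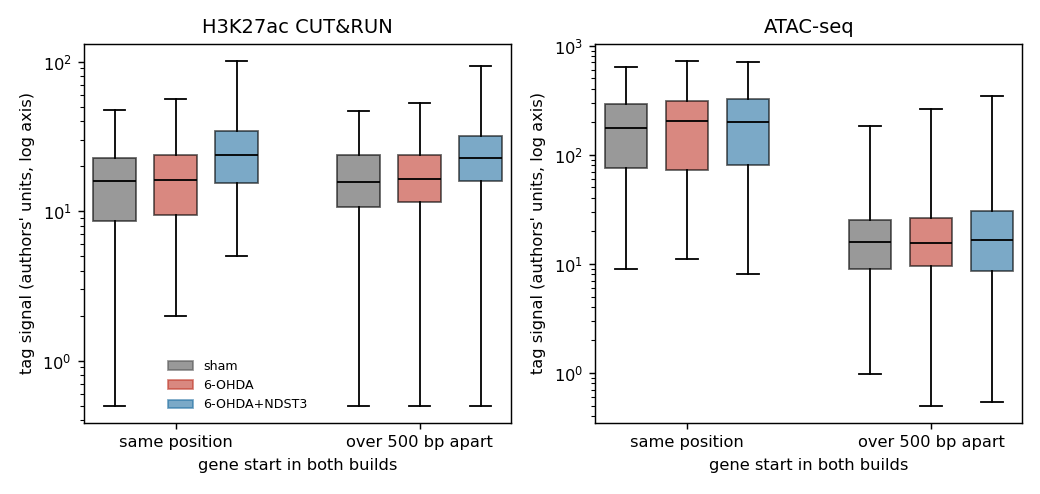
Tag signal (y axis, authors' units, log axis) of the overlapping regions in sham, the 6-OHDA group and the 6-OHDA+NDST3 group, by whether the gene start coincides in both builds (boxes show quartiles and median, whiskers the lowest and highest region). In sham the H3K27ac medians are 15.9 and 15.6, whereas the ATAC-seq medians are 176 where the builds coincide and 15.9 where they do not.

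The strongest ATAC signals of the overlapping regions were all position-matched. They belonged to Gm45952, a predicted gene (639 in sham, 719 in 6-OHDA and 689 in 6-OHDA+NDST3), Capza2, an actin filament capping subunit (608, 704 and 708), Ccny, a membrane-bound cyclin (575, 591 and 632), Msantd4 (569, 563 and 663) and Erp44, a chaperone of the secretory pathway (567, 685 and 705). H3K27ac on the same bases was low in several of them. Erp44 had 1.5, 2 and 5, and Ccny 6.03, 3.95 and 11.8, whereas Gm45952 had 26.1, 19.9 and 28.9. The strongest H3K27ac in sham was found at Phaf1 (53.3, 44.2 and 48.1), Smc2os (47.2, 39.3 and 47.2), Sord, the sorbitol dehydrogenase (46.8, 40.2 and 47.1), Ttll7, a tubulin polyglutamylase (46, 48.4 and 72.7), and Hs3st1, a heparan sulfate sulfotransferase (45.8, 26.9 and 35.3). Of these only Smc2os was position-matched, with an ATAC signal of 79.8 in sham.

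Across the 93 position-matched regions the levels of both marks showed no positive correlation. The Pearson correlation of log2 signals was -0.12 in sham and -0.18 in each of the lesioned groups. These are descriptions over regions that share libraries, and several regions share an ATAC partner. The ATAC signal of these regions followed the RNA level of their genes weakly, with correlations with log2(TPM + 1) of 0.30, 0.38 and 0.36 over 87 regions, where TPM is the transcript abundance per length. In the shifted regions, whose ATAC signal is not assigned to the named gene, this correlation was 0.01, -0.02 and -0.01. Over all 268 position-matched ATAC regions with RNA-seq, overlapping or not, it was 0.33, 0.39 and 0.36. H3K27ac gave -0.28, -0.19 and -0.16 in the position-matched overlapping regions, -0.07, 0.02 and 0.07 over all 358 position-matched H3K27ac regions and between -0.02 and 0.03 in the shifted ones.

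The lesion comparison asks how each mark at these promoters differed after 6-OHDA. The H3K27ac signal was at least 2-fold higher than in sham in 20 of the 381 overlapping regions (5.25%) and at least 2-fold lower in 20, where all 11326 H3K27ac regions above the low-signal limit gave 7.77% and 4.52%. The median log2 ratio was 0.14 in the overlapping regions and 0.13 in the others. ATAC signal was at least 2-fold higher in 16 of 379 overlapping ATAC regions (4.22%) and lower in 18 (4.75%), against 6.19% and 6.87% of all 3537. Where the builds coincide, 2 of 86 overlapping ATAC regions were 2-fold higher and none was 2-fold lower, with a median log2 ratio of 0.10. The 225 position-matched ATAC regions without overlap gave 4.89% higher and 2.22% lower. Their median signal in sham was lower, at 52.4 against 176.

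The largest H3K27ac ratios above sham after the lesion among regions reaching a signal of 1 in each of these groups were at Lhpp, a phosphatase gene (1.82 to 7.95), Gabpb2, a subunit of the ETS-family complex GABP (6.35 to 19.9), Spag1, needed for assembly of ciliary dynein (3.36 to 10.4), Irak3, a brake on Toll-like receptor signalling (1.51 to 5.45), and Fam219a (7.54 to 20.4). Of these only Fam219a was position-matched, and its ATAC signal was 31.1 in sham and 36.5 after the lesion. Among the largest ratios below sham were those at Pafah2, a phospholipase gene (15.7 to 4.95), Rtl6, a retrotransposon-derived gene (25.1 to 8.45), Mtdh (16.6 to 5.45) and Gm8273 (12.5 to 4). At the position-matched promoter of Gm8273 the ATAC signal was 256 in sham and 316 after the lesion.

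Regions of 1 promoter differed in direction. Pot1a, which protects telomere ends, had 3 overlapping H3K27ac regions. The region over its start went from 24.6 to 12.4, and the 2 regions before it from 27 to 34 and from 41.3 to 51.4. The ATAC region over the start of Pot1a went from 412 to 377. Capza2 had 2 regions, which went from 3.53 to 5.95 and from 0.5 to 5.95.

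NDST3 after the lesion was compared with the lesion alone. H3K27ac was higher in 374 of the 386 overlapping regions and equal in 12, and no region of the whole table was lower. It was at least 2-fold higher in 43 of 381 (11.3%) and lower in none, with 11.1% and 0% over all regions. The median log2 ratio was 0.39 both in the overlapping and in the other regions, and 0.50 in the position-matched overlapping regions against 0.35 in the position-matched regions without overlap. These 2 position-matched sets differed in level. Median H3K27ac in sham, 6-OHDA and 6-OHDA+NDST3 was 15.9, 16.1 and 23.9 with overlap and 18.1, 19.4 and 25.9 without. ATAC signal was 2-fold higher in 15 of 379 (3.96%) and lower in 17 (4.49%), where all ATAC regions gave 5.88% and 4.47%. None of the 86 position-matched overlapping ATAC regions passed 2-fold in either direction. Their median log2 ratio was 0.10, and 61 were higher and 25 lower. Position-matched ATAC regions without overlap, of lower median signal, seldom passed 2-fold either, with 1.78% higher and 3.11% lower.

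The largest H3K27ac differences were at Anks6, a protein of the primary cilium (1.93 in sham, 5.45 in 6-OHDA and 54.5 in 6-OHDA+NDST3), Rhno1, a DNA damage checkpoint gene (12.3, 13.6 and 93.3), Chmp5, an ESCRT-III subunit of membrane scission (0.87, 3.7 and 24.1), Mrps33 of the mitochondrial ribosome (1.82, 5.7 and 27.1), and Rai14, an actin-binding protein (13.1, 5.95 and 25.3). Anks6 and Chmp5 were position-matched. Their ATAC signals went from 123 to 220 to 183 and from 524 to 531 to 572 over sham, 6-OHDA and 6-OHDA+NDST3, so at Anks6 the ATAC signal was lower with NDST3 than without. Neither gene was called in RNA-seq. Anks6 had 7.73 and 9.23 CPM (counts scaled to the library total) in sham, 9.39 in 6-OHDA and 7.88 and 6.82 in 6-OHDA+NDST3, with overlapping values of sham and 6-OHDA+NDST3. Chmp5 had 91 and 98.2, then 103, then 100 and 89.2 CPM.

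Compared with sham, the NDST3-treated PD model had at least 2-fold higher H3K27ac in 97 of 381 overlapping regions (25.5%) and lower in 3 (0.787%), against 25.7% and 0.636% of all regions. No region of the table has NDST3 below the lesion, and the part of this in the balance was not tested. The position-matched regions without overlap, whose median signal was higher in each group, gave 21.2% at least 2-fold higher and 0.719% lower. Among the 93 position-matched overlapping regions 36 were 2-fold higher (38.7%) and 1 was lower. The lower region was at Nipsnap3b, a mitochondrial gene, with 31.7 in sham and 13.4 in both lesioned groups, and its ATAC signal was 382, 373 and 432. The other 2 were at Ropn1l (12.9, 4.7 and 5.22) and Lama1, a laminin chain of the basement membrane (26, 10.7 and 11.2). ATAC signal was 2-fold higher in 29 of 379 (7.65%) and lower in 19 (5.01%), against 10.0% and 7.15% of all ATAC regions. The position-matched overlapping ATAC regions gave 1 of 86 higher, at Npr2, the receptor of C-type natriuretic peptide (8.97, 20.2 and 27.5), and none lower. Those without overlap gave 4% higher and 3.56% lower.

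The largest ATAC-seq ratios of overlapping regions, apart from Npr2, came from regions of low signal that were not position-matched. After the lesion the region listed for Ccdc66 went from 3 to 11 and that listed for Irak3 from 19.2 to 3.5. With NDST3 that for Ankle2 went from 3 to 12 and that for Stard3nl from 10 to 1.5. These values are not assigned to the promoters of the genes named.

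The ratios of both marks were close to uncorrelated. Over the 93 position-matched regions the Pearson correlation of the log2 ratios was -0.05 for the lesion against sham, -0.12 for NDST3 against the lesion and -0.07 for NDST3 against sham. No position-matched region changed 2-fold in both marks in any of the 3 comparisons. Only 2, 0 and 1 of their 86 ATAC regions passed 2-fold at all in the same order. A shared 2-fold change was therefore hardly possible, and its absence says little about how the marks relate. Over all 379 overlapping regions with both values, most of them shifted and so not taken as shared DNA, the correlations were 0.05, 0.09 and 0.08. Regions that were 2-fold higher in both marks numbered 2, 1 and 11, none of them position-matched.

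**Figure D3:**
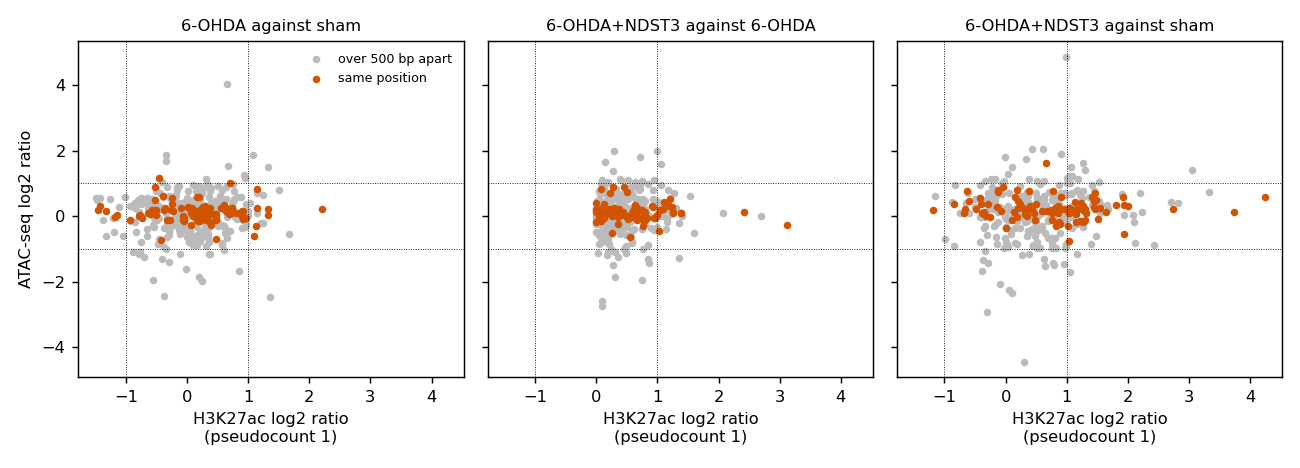
Log2 ratio of ATAC-seq signal (y axis) against log2 ratio of H3K27ac signal (x axis, pseudocount 1) for each overlapping region in the 3 comparisons, in orange where the gene start coincides in both builds and in grey where it is over 500 bp apart, with dotted lines at 2-fold. Orange points spread along the H3K27ac axis and stay within 2-fold on the ATAC-seq axis with few exceptions, and no H3K27ac value lies below 0 in the middle panel.

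RNA-seq had 51003699 to 70533326 counts per library. The mouse gene Ndst3 had 14.1 and 21 CPM in sham, 7.96 in 6-OHDA and 23.3 and 13.5 in 6-OHDA+NDST3. The AAV9 vector of the methods carried human NDST3 and the reads were aligned to the mouse genome, so these values need not measure a vector transcript. The tissue carried dopaminergic neuron markers, whose summed TPM over 8 of 8 listed markers was 690 and 660 in sham, 20.8 in 6-OHDA and 123 and 88.4 in 6-OHDA+NDST3. Other cell types moved with the groups as well. The 10 neuron markers summed to 5075 and 5703, then 1759, then 4384 and 4064. The 7 astrocyte markers summed to 2926 and 2102, then 7279, then 3766 and 4706. For microglia 6 of 7 markers were listed, with 621 and 434, then 4296, then 1587 and 2363. The 8 oligodendrocyte markers lay between 10662 and 13926 in all libraries and the 4 endothelial ones between 114 and 212. Choroid plexus markers were between 7.82 and 69.8, except for 2087 in the second 6-OHDA+NDST3 library. B cell and neutrophil markers (2 of 3 and 1 of 3 listed) stayed at or below 25.3, and no T cell marker was listed. In bulk tissue, fewer cells of a type and less RNA per cell cannot be told apart, and the part of cell composition in the changes that follow was not tested.

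Of the 334 genes, 306 were in the RNA-seq table (3 under another symbol) and 303 passed the filter on low counts. After the lesion 59 rose (19.5%) and 61 fell (20.1%) at an adjusted p under 0.05 by edgeR's quasi-likelihood test, against 18.8% and 17.1% of the 19300 genes tested. The median log2 fold change was -0.04, and -0.00 over all genes. The 66 tested genes of position-matched regions gave 10 higher and 12 lower. This comparison rests on a single 6-OHDA library, whose spread is taken from the other groups, and edgeR called none of the 303 genes once either the first or the second sham library was left out.

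The 5 genes that rose most after the lesion were Serpina3h, Vim, Espl1, Msn and Glipr2. Vim, the intermediate filament of reactive astrocytes, had 129 and 53.1 CPM in sham, 1236 in 6-OHDA and 206 and 404 in 6-OHDA+NDST3. Its log2 fold change after the lesion was 3.76 (standard error 0.62, adjusted p = 0.0126 from edgeR). Serpina3h is annotated as a transcribed pseudogene and belongs to a serine protease inhibitor cluster whose members are much alike, so that reads may be shared. It had 6.58 and 4.84, then 84.7, then 19.4 and 43.2 CPM. Msn, which links actin to the membrane, had 52.8 and 32.8, then 302, then 84.4 and 131. Espl1, the separase of mitosis, and Glipr2 rose by log2 fold changes of 2.84 and 2.38. In each of these genes the 6-OHDA library lay above all others, which follows in part from choosing them for their difference in it. Their H3K27ac signal was 18.6, 11.4 and 22.9 at Vim, 13.1, 16.9 and 22.7 at Serpina3h and 10, 11.9 and 12.4 at Msn in sham, 6-OHDA and 6-OHDA+NDST3.

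The 5 genes that fell most were Klhl1, Gm42274, Sowahb, Plch1 and Ankrd6. Klhl1, an actin-binding protein of neurons, had 34.6 and 43.7 CPM in sham, 5.96 in 6-OHDA and 37 and 21.9 in 6-OHDA+NDST3. Its log2 fold change was -2.71 after the lesion (standard error 0.40, adjusted p = 0.0103 from edgeR) and 2.30 with NDST3 (standard error 0.39, adjusted p = 0.0353 from edgeR). Plch1, a phospholipase C, had 41 and 43, then 13, then 35.5 and 38.1 CPM. Ankrd6, an inhibitor of canonical Wnt signalling, had 56 and 56.2, then 18.6, then 43.8 and 48.4 CPM. Sowahb and Gm42274 fell by log2 fold changes of 1.89 and 1.97. The 6-OHDA library was below all others in each, which again follows in part from the choice of genes. H3K27ac at Klhl1 was 25.9, 25.1 and 27.7 over the 3 groups, and at Ankrd6, the only position-matched one of these with a 2-fold H3K27ac change, 12.1, 4.95 and 7.43.

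Genes with a 2-fold H3K27ac difference after the lesion were called in RNA-seq in both directions. Of 37 such regions with a tested gene, 18 belonged to a gene called in RNA-seq (48.6%, against 41% of the regions under 2-fold), 8 in the same and 10 in the opposite direction. In the same direction, Irak3 (2.33 and 1.77 CPM in sham, 5.23 in 6-OHDA), Gabpb2 (16.3 and 14.9, then 25.7) and Capza2 (166 and 182, then 287) rose in RNA-seq and had higher H3K27ac. At Capza2 only the region with a sham signal of 0.5, the lowest among the overlapping regions, passed 2-fold. Ankrd6, Cacnb2, an auxiliary subunit of calcium channels (51.1 and 56.4, then 25.3), Rtl6 and Zfp622 fell in RNA-seq and had lower H3K27ac. In the opposite direction, Fam219a, Pdss2, an enzyme of ubiquinone synthesis, Ppargc1a, the coactivator of mitochondrial biogenesis, Tigar, a fructose-bisphosphatase, and Spag1 had higher H3K27ac, and their RNA fell. For Ppargc1a the H3K27ac signal went from 5.02 to 12.9 and the RNA from 73.3 and 78.8 to 39.2 CPM. Nipsnap3b, Pafah2, Mtdh and Rai14 had lower H3K27ac, and their RNA rose, at Nipsnap3b from 11.3 and 8.78 to 22.7 CPM.

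**Figure D4:**
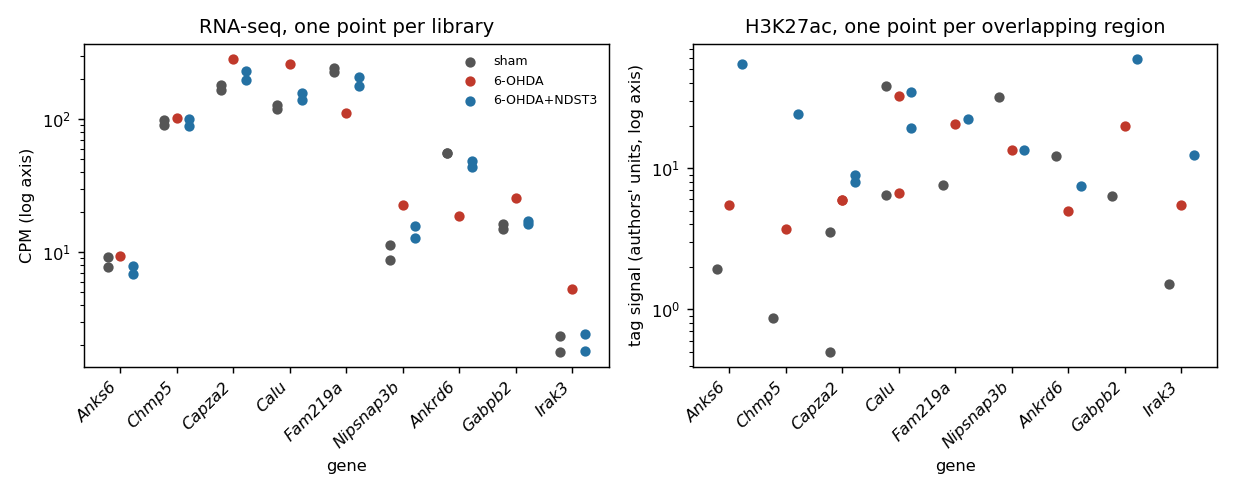
RNA-seq CPM of each library (left, y axis log) and H3K27ac signal of each overlapping region (right, y axis log, authors' units) for 9 genes in sham, the 6-OHDA group and the 6-OHDA+NDST3 group. Anks6 and Chmp5 differ widely in H3K27ac and overlap between sham and 6-OHDA+NDST3 in RNA-seq, and Fam219a and Nipsnap3b differ in opposite directions in both measures after the lesion.

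With NDST3 against the lesion, 38 of the 303 genes rose (12.5%) and 19 fell (6.27%), where 9.06% and 6.59% of all genes did. The median log2 fold change was 0.09, and 0.00 over all genes. This comparison shares its single 6-OHDA library with the lesion comparison. A gene extreme in that library therefore tends to appear in both, with opposite signs. Genes with any H3K27ac region in the table gave 11.8% and 6.54%, so the overlapping genes are close to the whole H3K27ac table. This count fell to 0 in both directions when either sham library or the first 6-OHDA+NDST3 library was left out, and when only the libraries of the groups compared were used. Klhl1, Sowahb, Gm42274, Plch1 and Nipal2, a magnesium transporter, rose most. Nipal2 had 6.22 CPM in 6-OHDA and 14.5 and 17 in 6-OHDA+NDST3, where sham had 12.6 and 16.1. Cxadr, a tight junction adhesion receptor, Mcm5 of the replicative helicase, Glipr2, Espl1 and Wnt5b fell most. Glipr2 was position-matched, with 6.43 and 6.59 CPM in sham, 33.9 in 6-OHDA and 9.98 and 13.5 in 6-OHDA+NDST3, an H3K27ac signal of 8.56, 6.95 and 9.93 and an ATAC signal of 31.4, 29 and 54.3.

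Of the 41 regions with a tested gene and 2-fold higher H3K27ac with NDST3, 6 belonged to a called gene (14.6%, against 19.9% of the regions under 2-fold), 2 higher and 4 lower. Csrnp3, a nuclear factor of neurons, and Lingo2, a leucine-rich repeat protein of neurons, rose in RNA-seq. Lingo2 was position-matched, with H3K27ac of 8.91, 17.6 and 36.7, ATAC signal of 11.8, 11 and 8, and RNA of 23.7 and 31.3 CPM in sham, 12 in 6-OHDA and 28 and 24.1 in 6-OHDA+NDST3. Calu, a calcium-binding protein of the endoplasmic reticulum, Gabpb2, Rps16 of the small ribosomal subunit and Wnt5b, a non-canonical Wnt ligand, had higher H3K27ac and lower RNA. The Calu region 93 bp before the start had H3K27ac of 6.43, 6.7 and 19.1 and ATAC signal of 316, 364 and 385, and its RNA was 129 and 120 CPM in sham, 263 in 6-OHDA and 141 and 158 in 6-OHDA+NDST3. The log2 fold change of Calu with NDST3 was -0.82 (standard error 0.12, adjusted p = 0.0336 from edgeR).

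Between the NDST3-treated PD model and sham edgeR called no gene in either direction (0%), among the overlapping genes or among all 19300. At an unadjusted p under 0.05 there were 40 of 303 (13.2%), against 14.2% of all genes. DESeq2 called 9 of the 303, 7 higher and 2 lower, and 1023 genes over the whole table, and limma on log2(FPKM + 1) called none of the 303.

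Of all 7253 genes with an H3K27ac region, 334 (4.6%) had an overlapping one. Among gene groups, 5 members of the respiratory chain list had overlapping regions, of 60 of its genes with any H3K27ac region. These were Ndufa5 and Ndufb6 of complex I, Ndufa4, a subunit now placed in complex IV, Uqcrfs1 of complex III and Sdhaf3, an assembly factor of complex II. All but Uqcrfs1 were position-matched, with strong ATAC signal at Ndufa4 (261, 281 and 304) and Sdhaf3 (266, 274 and 284). Sdhaf3 fell after the lesion, from 8.21 and 8.75 to 5.32 CPM (log2 fold change -0.67, standard error 0.19, adjusted p = 0.0488 from edgeR), the other 4 had log2 fold changes of -0.31 to -0.41 without a call, and none was called with NDST3. In the whole list 2 rose and 17 fell of 98 tested, against 18.8% and 17.1% of all genes.

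The channel list gave 6 members, of 36 of its genes with any H3K27ac region. Among the 6, Cacnb2 and Kcnn1, a small-conductance potassium channel, fell after the lesion and rose with NDST3. Kcnn1 had 20.9 and 21.1 CPM in sham, 10.7 in 6-OHDA and 16.8 in each 6-OHDA+NDST3 library. The fall and the rise both rest on the same 6-OHDA library. Cacnb4, Kcnd2, Kcnh5 and Kcnt2 passed in neither comparison, and Kcnd2, the position-matched one, had 89.9 and 92.4, then 62.8, then 89.9 and 126 CPM. In the whole list of 124 channel genes 6 rose and 59 fell after the lesion, against 18.8% and 17.1% of all genes, and 41 rose and 1 fell with NDST3, against 9.06% and 6.59%. Of the 101 cytosolic ribosomal protein genes tested 76 rose and 3 fell after the lesion, against 18.8% and 17.1% of all genes. Overlapping regions were found for 2 of the 54 with any H3K27ac region. These were Rps16, which rose from 91.6 and 90 to 184 CPM, and Rpl30 (51.1 and 75, then 94.6, then 87.4 and 91.9 CPM), which was not called.

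Genes of acetylation itself are too few here to be set apart from the 4.6% of all genes. None of the 20 lysine acetyltransferase genes with an H3K27ac region and none of the 11 acetyl-lysine reader genes overlapped. Of the 17 deacetylase complex genes only Sap30, a subunit of the Sin3 corepressor, did, with 3.71 and 3.87 CPM in sham, 9.74 in 6-OHDA and 5.61 and 6.13 in 6-OHDA+NDST3 (log2 fold change after the lesion 1.36, standard error 0.20, adjusted p = 0.0106 from edgeR). The remodelling list held Chd9 alone, which was not called. Of the cell type markers only 1 neuron and 1 oligodendrocyte marker had any H3K27ac region, and neither overlapped. The other lists (mitochondrial ribosomal proteins, zinc finger proteins, solute carriers, proteasome, translation factors, RNA binding, ubiquitin, vesicle traffic, motor proteins, kinases and cell cycle) held 0 to 5 members each, with at most 1 called in each direction in either comparison. These lists are loose, as Map3k8 and Mapkbp1 stand in both the motor protein and the kinase list. Their counts describe the lists rather than the functions named.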

How the data were processed

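RNA-seq, H3K27ac CUT&RUN and ATAC-seq tables of mouse brain were used. The authors aligned RNA-seq reads to mm10 with HISAT2 and deposited StringTie counts, FPKM and TPM per gene and library. They trimmed ATAC-seq reads with Trim Galore, aligned them with Bowtie2 to mm10 and called regions with MACS2, and the deposited tables give a tag signal per region and group. How the H3K27ac table was made is not given in the sources used here, beyond the build mm10 that the authors name. Most gene starts listed for its regions did not match that build. How either signal was normalised is not given either. The single-cell table was not used here.

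The overlapping regions and gene lists were chosen with earlier results of these data known. Regions were intersected by position (at least 1 shared base, ends not counted), and each listed gene start was compared with GRCm38 (within 2 bp counted as coinciding). Log2 ratios used a pseudocount of 1 for H3K27ac and none for ATAC-seq, regions under 1 in all groups were left out, and no test was possible with 1 column per group. RNA-seq counts were tested with edgeR 4.0.16 (quasi-likelihood, TMM, all 5 libraries, Benjamini-Hochberg adjustment over all 19300 genes), with DESeq2 1.42.0 and limma 3.58.1 as alternatives, and the script was tested on simulated data. CPM are TMM-scaled counts. The methods describe replicates in general as biological but do not name the animals behind each library, so p-values measure only the spread between these libraries, which may in part be technical. Older gene symbols were used only where they are not the current symbol of another gene. Genes were named by rule: the 5 largest H3K27ac, ATAC-seq and called RNA-seq differences per direction and comparison, genes 2-fold apart in H3K27ac and called in RNA-seq, the 5 strongest regions in sham, and list members. Pot1a regions, Erp44 and the edge cases of the overlap rule were described in more detail after their values were seen. 1 gene that the rule names is not reported here.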

Additional observations from a re-analysis of the deposited data

How the results depend on the processing

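The overlap rule set the number of regions: 228 with at least 50% of the shorter region shared, 209 with the H3K27ac centre inside the ATAC region and 93 at the same position in both builds. Centring on the median of all regions took the H3K27ac medians to 0.01 (6-OHDA against sham), -0.00 (6-OHDA+NDST3 against 6-OHDA) and -0.01 (6-OHDA+NDST3 against sham, a changed sign), with 2.36% higher in the second and 6.82% higher and 5.25% lower in the last. It took the ATAC-seq medians to -0.01, -0.02 and -0.03, with 1.85% higher in the second and 3.69% higher and 10.3% lower in the last. Requiring 50% overlap gave 1.33% lower H3K27ac in the last. The other pseudocount gave 2.9% lower ATAC-seq in the first and 2.11% higher in the second. At the same position H3K27ac medians were 0.50 and 0.80 in the second and last, with 38.7% higher in the last, and ATAC-seq gave 2.33% higher and 0% lower, 0% and 0%, and 1.16% and 0%.

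For RNA-seq in the first comparison, the replicate block left 5.61% higher and 3.63% lower, and 0% both ways in the second. The libraries share only a number, and the deviations of same-numbered sham and 6-OHDA+NDST3 libraries correlated at -0.326 across genes. With the numbers crossed (chosen after seeing the data), 38 genes (12.5%) were lower in the second, and 11 higher (3.63%) and 2 lower (0.66%) in the last. A 2-fold change with an unadjusted p under 0.05 gave 10.6% and 7.59% in the first, 4.95% higher in the second, and 1.98% and 0.33% in the last. Fitting only the groups compared gave 0% both ways in the second. limma gave 3.63% lower (FPKM + 1) and 2.97% (FPKM + 0.1) there, and DESeq2 13.2% lower there and 2.31% and 0.66% in the last. Leaving out 1 library gave 0 to 20.8% higher and 0 to 20.5% lower in the first, 0 to 9.9% and 0 to 7.59% in the second and 0 to 0.66% and 0% in the last, with medians of -0.05 to -0.01, 0.02 to 0.11 and -0.01 to 0.07. For single named genes, 325 alternative values kept their call, 167 lost it and none changed sign.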
